A study of Mus musculus with 106 samples.

Results

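The comparison described here is the response of DBA/2J female livers to a high-fat diet. It rests on 6 liver RNA-seq libraries of a series of 9 inbred mouse strains that holds 100 further libraries. They were chosen by their sample titles: 3 DBA/2J females on the high-fat diet and 3 DBA/2J females on chow, with 1 library per mouse and all 14330 genes of the deposited count table. DBA/2J is a common inbred laboratory strain, and both groups were 21 weeks old and differed by label only in the diet. They were compared with 6 DBA/2J males and with 48 libraries labelled as females of 8 strains, 3 for each strain and diet, all of the same age and on the same diets. These were the wild-derived strains WSB/EiJ, PWK/PhJ and CAST/EiJ, and the laboratory strains NZO/HlLtJ, C57BL/6J, NOD/ShiLtJ, 129S1/SvImJ and A/J. The chow group ate a diet with 6% of its calories from fat, 20% from protein and 74% from carbohydrate. The high-fat group was given, from 8 weeks of age, a diet with 60% of its calories from fat, 20% from protein and 20% from carbohydrate, so fat replaced carbohydrate. The mice had free access to food, livers were perfused and collected in the morning, and the hour of each mouse is not among the labels. The strains entered the study in staggered cohorts and the animals of the 2 diets come from separate ranges of animal numbers, so diet and cohort cannot be told apart in these 6 mice.

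The liver takes up fatty acids, makes them from sugar, burns them and stores them in lipid droplets. Fatty acid oxidation genes are switched on by the nuclear receptor PPARα, which fatty acids bind. Genes for fatty acid and for cholesterol synthesis are switched on by SREBP transcription factors, the former mainly by insulin and the latter when sterol in the cell is low. Livers also hold resident macrophages, the Kupffer cells, and respond to interferons by a shared set of antiviral and antigen-processing genes. In this tissue the circadian clock drives many metabolic genes, so that their levels depend on the hour.

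The total of gene counts lay between 45771910 and 54394944 in the 6 libraries. Xist, the RNA that silences an X chromosome in females, was at 232.0 to 387 CPM (counts scaled by library size and TMM factors) in the 6 libraries and at most 0.413 CPM in the 6 DBA/2J male libraries, as labelled. All 12 hepatocyte markers were found, and their sum was 106148 to 139150 CPM on chow and 108034 to 138630.0 CPM on the high-fat diet. In a principal component analysis of log2 CPM, the first component held 50.2% of the variance and separated the diets. The second held 19.1% and set high-fat replicate 1 apart from high-fat replicates 2 and 3, and the third held 13.9% and set chow replicate 1 apart from the other 2 chow libraries. The share of reads that aligned to more than 1 place was 18.7% to 19.4% on chow and 15.6% to 16.7% on the high-fat diet. The share of reads outside genes was 5.94% to 6.08% on chow and 6.68% to 7.78% on the high-fat diet. The share of reads ambiguous between genes was 5.80% to 5.89% on chow and 6.07% to 6.19% on the high-fat diet. All of these shares split by diet, and their part in the results was not tested.

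Between the diets, 848 of 14330 genes (5.92%) passed an adjusted p of 0.05, of which 483 rose (3.37% of all genes) and 365 fell (2.55%) with high-fat feeding. A change of at least 1 on the log2 scale was reached by 260 of the genes that rose and 85 of those that fell. The median log2 change of all genes was -0.0076. Every library of one diet lay beyond every library of the other in 4288 genes (29.9%), among them 809 of the 848 called. An unadjusted p under 0.05 was reached by 3329 genes. Here and below, a call is one of edgeR fitted to all libraries of the series, unless another fit is named. With the 12 DBA/2J libraries alone edgeR called 1793 genes (12.5%), 1145 higher (7.99%) and 648 lower (4.52%). With the 6 females alone it called 666 (4.65%), 453 higher (3.16%) and 213 lower (1.49%). The number of calls depended on single mice: it was 99 without chow replicate 3, 270 without high-fat replicate 1, 305 without chow replicate 1 and 483 without high-fat replicate 3, each time with fewer samples in the fit. It was 631 without chow replicate 2 and 949 without high-fat replicate 2.

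Among the largest falls were a single enzyme of steroid synthesis, Hsd3b1, a single enzyme of glucuronide conjugation, Ugt2b37, and regulators of growth and energy balance. Hsd3b1, a 3β-hydroxysteroid dehydrogenase of steroid synthesis (chr3:98852194-98859794, minus strand, GRCm38), was at 9.25, 10.1 and 5.9 CPM on chow and 0.209, 0.132 and 0.202 CPM on the high-fat diet (log2 change -5.53, SE 0.82, adjusted p = 3.4e-05). Its reads numbered at most 11 in a high-fat mouse and at least 315 in a chow mouse. Ugt2b37, a UDP-glucuronosyltransferase that conjugates steroids and other substrates (chr5:87240493-87254804, minus strand), was at 77, 54.5 and 117 CPM on chow and 8.79, 7.17 and 4.97 CPM on the high-fat diet (log2 change -3.57, SE 0.51, adjusted p = 4.1e-06). Smad9, a signal transducer of bone morphogenetic proteins (chr3:54755582-54801257, plus strand), was at 17.6, 3.76 and 15.5 CPM on chow and 0.482, 0.364 and 0.44 CPM on the high-fat diet (log2 change -4.84, SE 0.64, adjusted p = 7.3e-07), with chow replicate 2 the lowest of the chow mice and still above every high-fat mouse. Eif4ebp3, a repressor of cap-dependent translation, was at 3.93, 2.07 and 3.18 CPM on chow and 0.482, 0.463 and 0.422 CPM on the high-fat diet (log2 change -2.74, SE 0.54, adjusted p = 0.0012). These 4 falls passed in all 6 fits that left out 1 of the 6 libraries.

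The leptin receptor and a binding protein of growth factors were also among the 12 largest falls. Lepr, the leptin receptor, was at 75.8, 21.8 and 57.8 CPM on chow and 5.38, 7.58 and 3.59 CPM on the high-fat diet (log2 change -3.23, SE 0.91, adjusted p = 0.024), a fall that passed in 2 of 6 fits with a library left out. Igfbp1, a secreted binder of insulin-like growth factors that insulin represses, was at 188, 318 and 694 CPM on chow and 83.2, 96.5 and 47 CPM on the high-fat diet (log2 change -2.41, SE 0.72, adjusted p = 0.033) and passed in 3 of 6 such fits. Without chow replicate 3 the log2 change of Igfbp1 was -1.74. In both genes the chow mice spread more than the high-fat mice, and the groups did not overlap. Serpina4-ps1, a pseudogene of the serpin family (chr12:104080649-104086724, plus strand), was at 142, 11.2 and 39.4 CPM on chow and 1.03, 0.844 and 2.42 CPM on the high-fat diet (log2 change -5.49, SE 1.12, adjusted p = 0.0019), with a log2 change of -4.13 without chow replicate 1. Mup7, a major urinary protein, was at 4.99, 4.45 and 11.1 CPM on chow and 0.607, 0.91 and 1.19 CPM on the high-fat diet (log2 change -2.91, adjusted p = 0.029) and passed in 2 of 6 fits. The other 4 of the 12 were the long noncoding RNAs Gm48199, 3930402G23Rik and Gm45301 and the unclassified transcript Gm47528, with log2 changes of -5.61, -3.99, -3.27 and -2.77, which passed in 6, 6, 6 and 2 of the 6 fits. Without chow replicate 3 the log2 change of Gm48199 was -4.86, and without high-fat replicate 2 that of Gm47528 was -3.41. That of 3930402G23Rik was -3.13 without chow replicate 1 and -5.00 without high-fat replicate 1. Gm47528 overlaps Apoa4 on the other strand, and since the strand used in counting is not given in the sources used here, their reads cannot be told apart. Hsd3b1, Ugt2b37, Mup7 and Serpina4-ps1 belong to families of close copies, and how shared reads were counted is not given either.

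The largest rises included a carbonic anhydrase, clock-controlled genes and interferon-induced GTPases. Car3, a carbonic anhydrase abundant in liver, fat and muscle (chr3:14863512-14872523, plus strand), was at 88.4, 423 and 166 CPM on chow and 1286, 1381 and 1528 CPM on the high-fat diet (log2 change 2.63, SE 0.66, adjusted p = 0.011), and passed in 4 of 6 fits with a library left out. The 3 high-fat mice were close together and the chow mice were spread, and the log2 change of Car3 was 3.46 without chow replicate 2. Nptx1, a secreted pentraxin better known from neurons, was at 0.352, 0.766 and 0.15 CPM on chow and 3.18, 7.1 and 4.57 CPM on the high-fat diet (log2 change 3.54, SE 0.60, adjusted p = 0.00017). Sema5b, a semaphorin, was at 4.75, 3.05 and 3.05 CPM on chow and 12.6, 24.7 and 23.6 CPM on the high-fat diet (log2 change 2.49, SE 0.44, adjusted p = 0.00031). Wee1, a kinase that delays entry into mitosis and a known clock target, was at 2.03, 2.52 and 2.55 CPM on chow and 4.42, 16.7 and 21.4 CPM on the high-fat diet (log2 change 2.58, SE 0.47, adjusted p = 0.00043), with high-fat replicate 1 well below the other 2. Nptx1, Sema5b and Wee1 passed in all 6 fits that left out a library, and Nptx1 had a log2 change of 4.30 without chow replicate 2.

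The long noncoding RNA Gm12718 (chr4:103382500-103492040, plus strand) was at 0.0391, 0.243 and 0.112 CPM on chow and 2.72, 3.23 and 2.9 CPM on the high-fat diet (log2 change 4.45, SE 0.58, adjusted p = 7.3e-07). It showed the largest rise under the naming rule, from levels close to 0, and also passed in all 6 fits, with a log2 change of 5.23 without chow replicate 2. Tgtp1 and Gbp10, GTPases induced by interferon gamma, had log2 changes of 2.57 (adjusted p = 0.033) and 2.40 (adjusted p = 0.0048). Tgtp1 was at 4.6, 3.89 and 1.93 CPM on chow and 43.1, 12.5 and 6.44 CPM on the high-fat diet, so its rise was led by high-fat replicate 1, and it passed in 2 of 6 fits, with a log2 change of 1.45 without that library. BC023105, Gm12250 and Mrgprb11-ps had log2 changes of 3.14, 2.31 and 2.66, and passed in 4, 3 and 6 of the 6 fits. BC023105 was at 5.63, 8.62 and 3.71 CPM on chow and 105, 38.1 and 14.9 CPM on the high-fat diet, and without high-fat replicate 1 its log2 change was 2.15 (adjusted p = 0.086). Dbp and Per3, which complete the 12, belong to the circadian clock and are described with it.

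**Figure D1:**
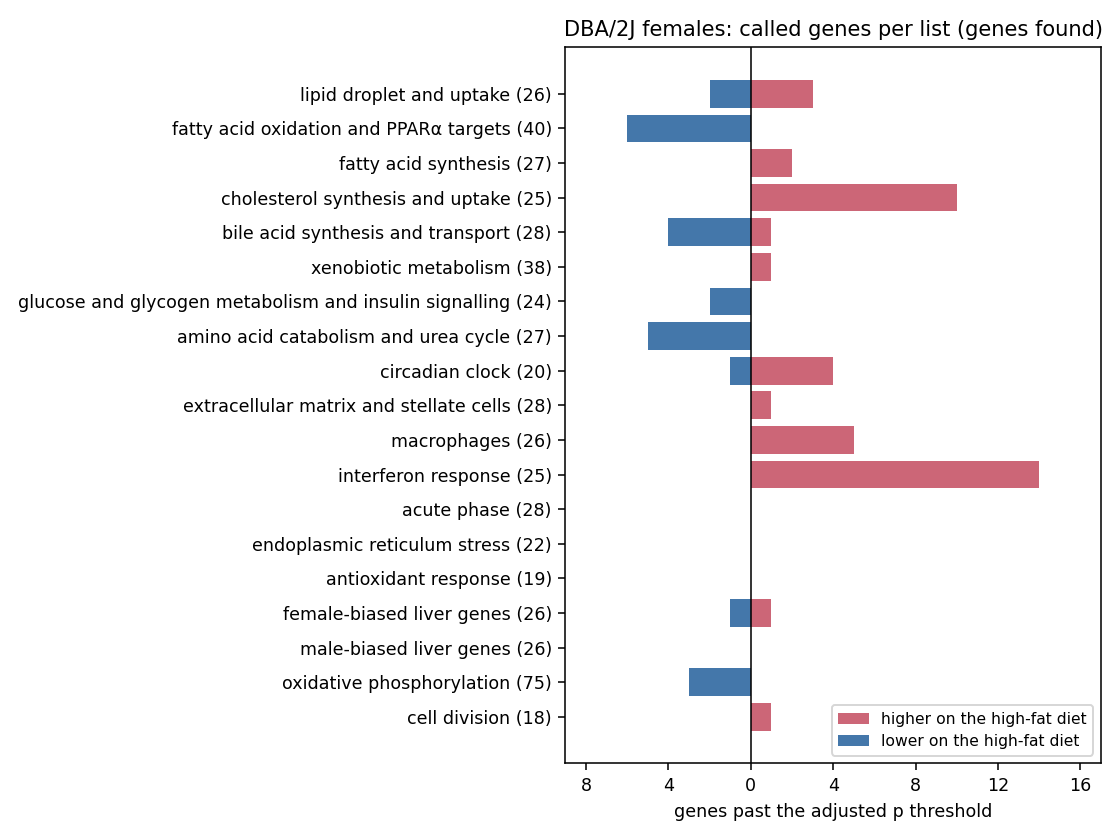
Number of genes past the adjusted p threshold in each of 19 gene lists, higher (right) or lower (left) on the high-fat diet in DBA/2J females, with the number of list genes found in brackets. The interferon list holds 14 rises and the cholesterol list 10, while the oxidation list holds 6 falls and no rise.

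Of the 19 pathway lists, the interferon response held the most rises: 14 of its 25 genes rose and none fell, against 3.37% of all genes that rose. Its median log2 change was 1.18, and all 25 estimates were positive. Psmb8 and Psmb9, subunits of the immunoproteasome that cuts peptides for presentation, had log2 changes of 1.51 (adjusted p = 0.0016) and 1.54 (adjusted p = 0.024). Psmb8 was at 20.2, 20.1 and 15.7 CPM on chow and 76.8, 40.5 and 41.7 CPM on the high-fat diet, with no overlap and high-fat replicate 1 the highest. Of the antiviral oligoadenylate synthetase family, Oasl2 (log2 change 1.32, adjusted p = 0.0048) and Oas1a (log2 change 1.23, adjusted p = 0.029) rose, while Oas2 and Oasl1 did not pass. The guanylate-binding proteins Gbp2, Gbp3 and Gbp6 rose by 1.64, 1.63 and 1.62, and Igtp, a GTPase of the same defence system, by 1.64.

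A transcription factor and a messenger of the pathway moved with these effectors. Irf7, which amplifies the type I response, was at 57.5, 83.7 and 47.8 CPM on chow and 193, 114 and 95.9 CPM on the high-fat diet (log2 change 1.09, adjusted p = 0.034). Cxcl9, a chemokine that draws T cells and is induced by interferon gamma, was at 7.04, 13.2 and 4.17 CPM on chow and 39.9, 33.1 and 19.5 CPM on the high-fat diet (log2 change 1.92, adjusted p = 0.02). In both genes all 3 high-fat mice lay above all 3 chow mice. The tetratricopeptide proteins Ifit1 and Ifit3 rose by 1.64 and 1.38, and Ifi44 by 1.40. The 11 genes that did not pass were Cxcl10, Ifit2, Iigp1, Irf1, Isg15, Mx1, Mx2, Oas2, Oasl1, Rsad2 and Usp18.

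The promoters of 3 of the genes that rose are shown because they carry the interferon-stimulated response element, the sequence that interferon-activated factors bind. The element was searched as GAAA, any 2 bases and GAAA, on both strands, where 2 matches may overlap, in windows from 250 bases before to 50 after each gene start in RefSeq (GRCm38.p6). Of the 14 genes, 12 matched RefSeq, with 13 windows. The parts printed run 60 bases to each side of the matches or to the end of the window, 5′ to 3′ on the gene's own strand, with the matches in capitals.
Ifit1 (chr19:34640725-34640873, plus strand): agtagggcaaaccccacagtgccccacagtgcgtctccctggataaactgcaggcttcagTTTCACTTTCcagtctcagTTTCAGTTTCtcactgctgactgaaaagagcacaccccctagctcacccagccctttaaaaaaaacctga
Gbp2 (chr3:142620544-142620673, plus strand): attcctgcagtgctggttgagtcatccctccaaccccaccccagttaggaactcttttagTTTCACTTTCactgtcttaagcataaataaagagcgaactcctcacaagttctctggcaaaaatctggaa
Oas1a (chr5:120907476-120907605, minus strand): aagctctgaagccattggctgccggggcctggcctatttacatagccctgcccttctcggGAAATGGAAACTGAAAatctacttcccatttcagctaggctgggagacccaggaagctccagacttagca
In Ifit1 the matches lie 104 and 85 bases before the start, in Gbp2 59 bases before it, and in Oas1a 20 and 14 bases before it, where they overlap. A match was present in 6 of the 13 windows, those of Gbp2, Gbp3, Ifit1, Ifit3, Igtp and Oas1a, and in 3.44% of all 32851 windows of the same length. A match is a description of these letters, not evidence of binding.

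High-fat replicate 1 was the highest library in all 14 of these genes, and chow replicate 3 the lowest in all 14. The summed level of the list was 845, 988 and 620.4 CPM on chow and 1969, 1549 and 1159 CPM on the high-fat diet. Without high-fat replicate 1, 2 of the 25 genes passed and the median log2 change was 0.88. Without chow replicate 3, 1 gene passed (median 1.05), and without chow replicate 1, 3 passed (median 1.15). The male DBA/2J livers gave a median of 0.50 with none of the 25 called by edgeR, where 1.1% of all genes were called in males, and no gene of the list passed the test of the difference between the sexes. The mean effect in females of the other 8 strains had a median of 0.64 over the list. None of the 25 passed the test of the difference between DBA/2J and these strains, where 0.279% of all genes did.

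**Figure D2:**
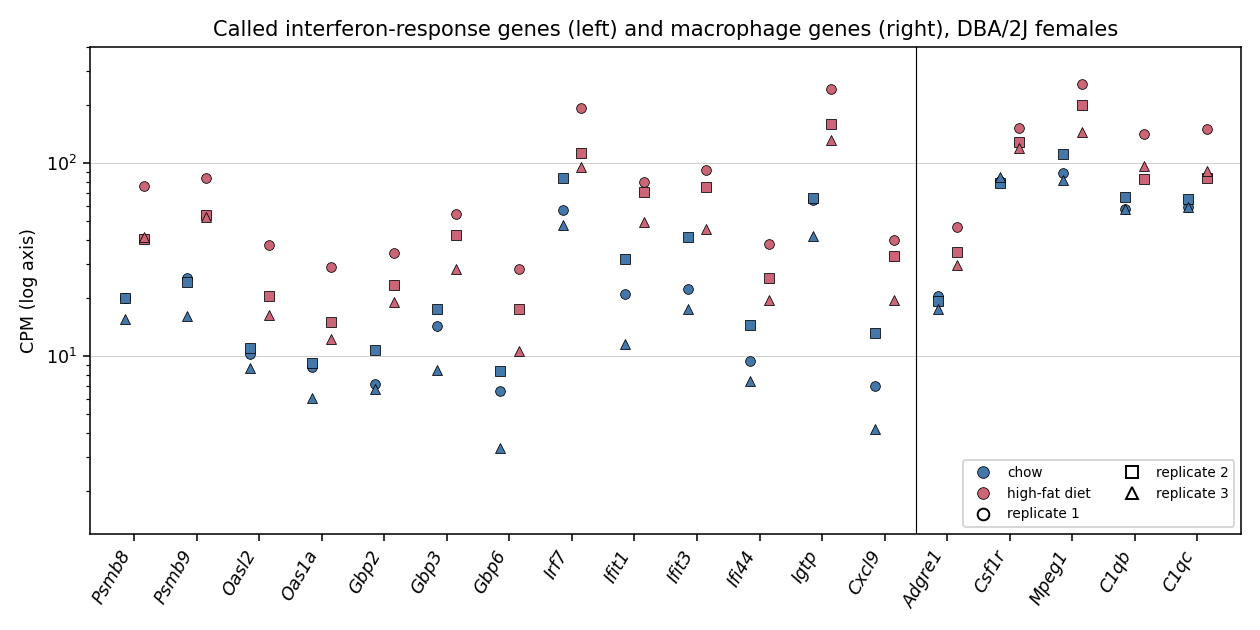
CPM of 13 called interferon-response genes and the 5 called macrophage genes in the 6 DBA/2J female libraries, on a log axis, with colour for the diet and symbol for the replicate. High-fat replicate 1 is the highest in each of these interferon genes, from 28.5 CPM in Gbp6 to 243 CPM in Igtp.

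Of 26 macrophage genes 5 rose and none fell, against 3.37% of all genes that rose, and 21 did not pass. Adgre1, which encodes a surface protein that marks mouse macrophages, was at 20.6, 19.4 and 17.6 CPM on chow and 46.8, 34.6 and 29.6 CPM on the high-fat diet (log2 change 0.94, SE 0.28, adjusted p = 0.034). Csf1r, the receptor for the growth factor of macrophages, was at 81.4, 79 and 84.6 CPM on chow and 153, 129.8 and 120.0 CPM on the high-fat diet (log2 change 0.72, SE 0.23, adjusted p = 0.048). Both had separate groups with modest spread. Mpeg1, a pore-forming protein of phagocytes, and the complement subunits C1qb and C1qc had log2 changes of 1.09, 0.81 and 0.82, with adjusted p-values of 0.014, 0.0495 and 0.047. The list's median log2 change was 0.77, and in 16 of its 26 genes all high-fat mice lay above all chow mice, where 29.9% of all genes had separate groups in either direction. In bulk tissue, more cells of a type and more RNA per cell cannot be told apart. edgeR called none of the 26 without high-fat replicate 1 (median 0.51, 6 genes at an unadjusted p under 0.05), chow replicate 1 (14 genes) or chow replicate 3 (12 genes). It called 1 without chow replicate 2 and 3 without high-fat replicate 3, and with all 6 libraries DESeq2 called 9 and limma 2. edgeR called 13 with the 12 DBA/2J libraries alone, where 7.99% of all genes were called higher. In females of the other 8 strains the mean effect had a median of 0.48 over the list. None of the 26 passed the test of the difference between DBA/2J and these strains, where 0.279% of all genes did.

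Among the markers of single cell types, 2 of 7 Kupffer cell markers rose, Adgre1 and Csf1r, against 3.37% of all genes, and the summed level of the 7 was 364, 409.8 and 368 CPM on chow and 801, 604 and 516 CPM on the high-fat diet. Clec4f, a lectin of mouse Kupffer cells, was at 109, 113 and 102 CPM on chow and 194, 157 and 155 CPM on the high-fat diet, separate between the groups with an adjusted p of 0.056. Cd5l was at 111, 149 and 118 CPM on chow and 321, 224 and 159 CPM on the high-fat diet (adjusted p = 0.052). edgeR called none of the 7 without any 1 of the chow mice (5 each at an unadjusted p under 0.05) or without high-fat replicate 1 (3), and 1 without high-fat replicate 2. DESeq2 called 5, limma 1, and edgeR with the 12 DBA/2J libraries alone 5, against 7.99% of all genes called higher in that fit. Of 9 T and NK cell markers 5 were found, among which the T-cell receptor constant segment Trbc2 rose (log2 change 1.56, adjusted p = 0.016), at most 1.57 CPM. edgeR called none of the 5 without chow replicate 2, chow replicate 3 or high-fat replicate 1 (4, 4 and 5 at an unadjusted p under 0.05), limma called none with all libraries, and edgeR called 3 with the 12 DBA/2J libraries alone (7.99% of all genes). Granulocyte markers summed to 1.08 to 1.64 CPM on chow and 3.72 to 6.6 CPM on the high-fat diet, and with all libraries of the series edgeR called none of the 8, with 5 at an unadjusted p under 0.05, DESeq2 2 and limma 0. edgeR called 7 of them higher with the 12 DBA/2J libraries alone (7.99% of all genes), 4 with the 6 females alone (3.16%) and 1 without high-fat replicate 2. Blood markers, red cell globins for the most part, summed to 29.5, 49.7 and 12.2 CPM on chow and 91.5, 71.6 and 52.6 CPM on the high-fat diet, lowest in chow replicate 3, and none of the 6 found was called with all libraries of the series (1 at an unadjusted p under 0.05 in edgeR, none called by DESeq2 or limma). In the fit of the 12 DBA/2J libraries alone edgeR called 1 of them higher (7.99% of all genes), with 3 at an unadjusted p under 0.05. The part of these markers in the interferon and macrophage rises was not tested. Endothelial, stellate cell and B cell markers had median log2 changes of 0.14, -0.11 and 0.22 with no call by edgeR, DESeq2 or limma among 10, 7 and 8 genes with all libraries of the series, and 2, 1 and 0 of them at an unadjusted p under 0.05 in edgeR. With the 12 DBA/2J libraries alone edgeR called 1 endothelial marker lower (4.52% of all genes). With a library left out these medians ranged from 0.043 to 0.23, from -0.24 to 0.076 and from 0.034 to 0.41, and the stellate one turned positive without high-fat replicate 2.

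Of 25 genes of cholesterol synthesis and uptake 10 rose on the high-fat diet and none fell, against 3.37% of all genes that rose. Early and late steps of the pathway were both among the calls. Hmgcs1, which makes HMG-CoA for the pathway, was at 69.1, 102 and 48.8 CPM on chow and 69.6, 114 and 335 CPM on the high-fat diet (log2 change 1.24, SE 0.38, adjusted p = 0.039). High-fat replicate 3 was the highest library, replicate 2 came next, and replicate 1 lay among the chow mice, so the groups overlapped. The mevalonate kinases and decarboxylase Mvk, Pmvk and Mvd had log2 changes of 1.08, 0.80 and 1.69.

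Fdft1, the squalene synthase, was at 55.2, 114 and 57.9 CPM on chow and 117, 139 and 285 CPM on the high-fat diet (log2 change 1.25, SE 0.29, adjusted p = 0.0063), with separate groups. The later sterol-modifying enzymes Msmo1, Nsdhl and Dhcr7 had log2 changes of 1.36, 1.47 and 0.95. Nsdhl was at 21.2, 36.6 and 16.6 CPM on chow and 39.7, 44.2 and 122 CPM on the high-fat diet (adjusted p = 0.0047). Sqle, squalene epoxidase, was at 40.5, 66.6 and 34.4 CPM on chow and 40.6, 60.9 and 219 CPM on the high-fat diet (adjusted p = 0.12), which did not pass. Replicate 3 thus stood above the other 2 high-fat mice in each of the genes given by sample here.

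Hmgcs1 carried the one match to a sterol regulatory element among the genes that rose, searched as TCACNCCAC on both strands in the same RefSeq windows, and its window part is shown with the match in capitals.
Hmgcs1 (chr13:119690154-119690282, plus strand): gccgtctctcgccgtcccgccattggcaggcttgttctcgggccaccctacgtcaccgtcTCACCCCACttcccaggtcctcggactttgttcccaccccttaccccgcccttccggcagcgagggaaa
The match lies 137 bases before the start. Of the 10 genes, 7 matched RefSeq with 10 windows, of which 1 held the motif, against 1.24% of all windows. No match says only that these letters were not in the window.

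The list's summed level was 1951, 2827 and 1966 CPM on chow and 2103, 3305 and 5595 CPM on the high-fat diet. Its median log2 change was 0.95 with all libraries and 0.29 without high-fat replicate 3, when edgeR called none of the 25 genes (4 at an unadjusted p under 0.05). The log2 changes of Hmgcs1, Mvk, Mvd, Msmo1, Nsdhl and Dhcr7 were then 0.32, 0.36, 0.52, 0.57, 0.76 and 0.23. edgeR called none without chow replicate 3 (median 0.81, 13 at an unadjusted p under 0.05) and 1 without chow replicate 1, while 13 passed without high-fat replicate 1 and 13 without high-fat replicate 2. With all 6 libraries limma called 4 and DESeq2 13. With the spread estimated from the 12 DBA/2J libraries alone 4 passed (7.99% of all genes were called higher), and from the 6 females alone 0 (11 at an unadjusted p under 0.05).

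**Figure D3:**
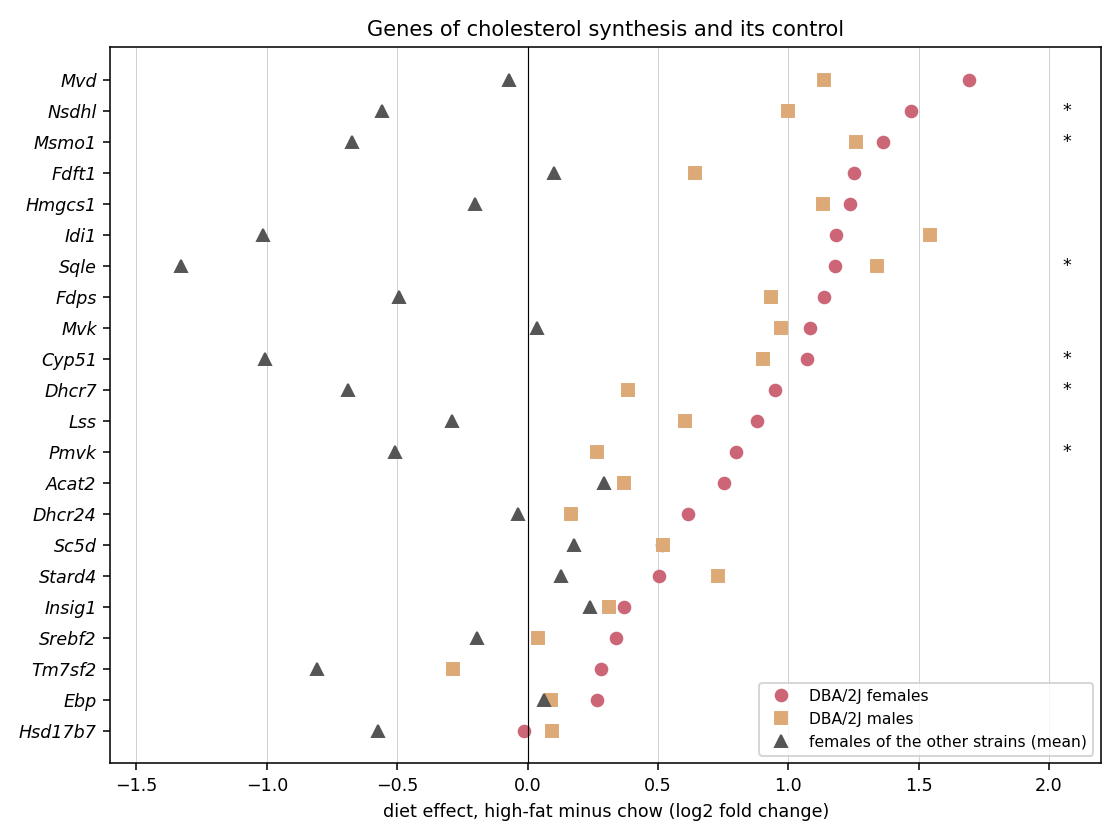
Diet effect, high-fat minus chow on the log2 scale, of 22 cholesterol genes in DBA/2J females, DBA/2J males and on average in females of the other 8 strains. A star marks the 6 of them whose effect in DBA/2J females passed the test of the difference from the other strains; Sqle had 1.18 in DBA/2J females and -1.33 in the others.

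This list also set DBA/2J females apart from females of the other 8 strains, whose mean effect had a median of -0.29 over the 25 genes. The difference between DBA/2J and the mean of the other strains passed in 7 of the 25 genes, against 40 of all genes (0.279%). Sqle had a mean log2 effect of -1.33 in the others (difference 2.51, SE 0.53, adjusted p = 0.0093), Cyp51 -1.01 (difference 2.08, SE 0.39, adjusted p = 0.0024) and Msmo1 -0.67 (difference 2.04, SE 0.47, adjusted p = 0.025). Nsdhl (difference 2.03, SE 0.35, adjusted p = 0.0008), Dhcr7 (difference 1.64, SE 0.30, adjusted p = 0.0014) and Pmvk (difference 1.31, SE 0.20, adjusted p = 5.5e-05) differed likewise, each with a negative mean effect in the other strains and a positive one in DBA/2J. Of the 6 fits that left out a DBA/2J female, Pmvk passed this test in 6, Nsdhl and Dhcr7 in 5 each, Cyp51 in 4, and Sqle and Msmo1 in 3 each. Without high-fat replicate 3 the differences were 1.44 in Sqle, 1.30 in Cyp51, 1.24 in Msmo1, 1.32 in Nsdhl and 0.92 in Dhcr7, and none of these 5 passed. DBA/2J males had a log2 effect of 1.34 in Sqle, and no gene of the list passed the test between the sexes.

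Of 27 genes of fatty acid synthesis 2 rose (7.41% of the list) and none fell, where 3.37% of all genes rose and 5.92% were called in either direction. Srebf1, the gene of the transcription factor that drives fatty acid synthesis, was at 58.3, 76.1 and 67.2 CPM on chow and 187, 255 and 267 CPM on the high-fat diet (log2 change 1.81, SE 0.37, adjusted p = 0.002). Thrsp, a nuclear protein that promotes lipogenesis, was at 6.16, 18.4 and 12.7 CPM on chow and 15.1, 84.4 and 244 CPM on the high-fat diet (log2 change 3.21, SE 0.58, adjusted p = 0.00034). Srebf1 was separate and tight in both groups, whereas Thrsp in high-fat replicate 1 lay within the chow range. Both passed in all 6 fits that left out a library, and Thrsp had a log2 change of 2.01 without high-fat replicate 3. The enzymes downstream did not pass: Acly had an adjusted p of 0.061, Fasn 0.11, Elovl6 0.23 and Scd1 0.23. Fasn was at 111, 141 and 105 CPM on chow and 68.3, 208 and 373 CPM on the high-fat diet and Scd1 at 729, 1417 and 367 CPM on chow and 1001, 5439.7 and 764 CPM on the high-fat diet, with replicates on the high-fat diet spread several-fold. The list's median log2 change was 0.24, and 0.099 without high-fat replicate 2. The count of calls was 5 without chow replicate 2 and 5 without high-fat replicate 1, and 5 in DESeq2 with all libraries.

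Of 26 genes of lipid droplets and lipid uptake 3 rose and 2 fell, against 3.37% and 2.55% of all genes. Cd36, a fatty acid transporter, was at 55.9, 42.5 and 45.9 CPM on chow and 76.7, 129 and 102 CPM on the high-fat diet (log2 change 1.09, SE 0.33, adjusted p = 0.036). Pparg, a nuclear receptor that drives fat storage, was at 5.87, 3.5 and 4.12 CPM on chow and 11.6, 9.98 and 10.5 CPM on the high-fat diet (log2 change 1.25, SE 0.36, adjusted p = 0.029), and Dgat2, which completes triglyceride synthesis, had a log2 change of 0.69 (adjusted p = 0.016). The rises of Cd36 and Pparg were separate between groups and passed in 1 of 6 and 2 of 6 fits with a library left out. Plin5, a droplet coat protein of oxidative tissues, was at 149, 103 and 131 CPM on chow and 66.5, 41.4 and 52.3 CPM on the high-fat diet (log2 change -1.26, SE 0.38, adjusted p = 0.033). Apoa4, an apolipoprotein secreted with lipid, was at 1264, 446 and 718 CPM on chow and 152, 202 and 266 CPM on the high-fat diet (log2 change -1.97, SE 0.46, adjusted p = 0.0067). The coat protein Plin2 was at 965, 481 and 558 CPM on chow and 634, 516 and 498 CPM on the high-fat diet (adjusted p = 0.69), and Cidec, which fuses droplets, at 30.2, 3.38 and 4.25 CPM on chow and 2.37, 3.43 and 3.43 CPM on the high-fat diet (adjusted p = 0.056), high in chow replicate 1 alone. Of the 26 genes, 1 was called without chow replicate 1, 1 without chow replicate 3, 1 without high-fat replicate 3, 2 without high-fat replicate 1 and 3 without high-fat replicate 2.

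Of 40 genes of fatty acid oxidation and targets of PPARα 6 fell and none rose, against 2.55% of all genes that fell. Ehhadh, the bifunctional enzyme of peroxisomal oxidation, was at 2853, 912 and 1556 CPM on chow and 628, 598 and 393 CPM on the high-fat diet (log2 change -1.72, SE 0.35, adjusted p = 0.0019). Of the omega-hydroxylases of the Cyp4a family Cyp4a10, Cyp4a31 and Cyp4a32 fell. Cyp4a31 was at 77.7, 68.9 and 75.8 CPM on chow and 32, 32.9 and 20.3 CPM on the high-fat diet (log2 change -1.38, SE 0.28, adjusted p = 0.002), and Cyp4a32 (log2 change -1.44, adjusted p = 0.0056) and Cyp4a10 (log2 change -1.25, adjusted p = 0.024) changed alike. These are close copies, and how their shared reads were counted is not given in the sources used here. Cyp4a14, which did not pass, was at 7278, 4366 and 5012 CPM on chow and 2744, 2297 and 1909 CPM on the high-fat diet, with separate groups and an adjusted p of 0.077. Cyp4a12a and Cyp4a12b, counted among the male-biased genes, did not pass either. Acot1, a cytosolic acyl-CoA thioesterase, fell from 340.4 ± 125 to 112 ± 57.4 CPM (SD, n = 3 mice each, adjusted p from edgeR = 0.012).

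Of the mitochondrial steps, Acadvl, the very-long-chain acyl-CoA dehydrogenase, fell (log2 change -0.37, adjusted p = 0.038), while Cpt1a, the gate of fatty acid entry, was at 1029, 665 and 859 CPM on chow and 518, 716 and 686 CPM on the high-fat diet (adjusted p = 0.21). Pdk4, which spares glucose when fat is burned, was at 50.5, 18.6 and 24.5 CPM on chow and 15, 8.47 and 5.23 CPM on the high-fat diet (adjusted p = 0.13), and the fasting hormone Fgf21 at 116, 31.9 and 35 CPM on chow and 17.1, 27.9 and 22.3 CPM on the high-fat diet (adjusted p = 0.23). In Cpt1a, Pdk4 and Fgf21 chow replicate 1 was the highest library. The summed level of the list was 34572, 24844 and 26809.7 CPM on chow and 21004, 19831 and 18512 CPM on the high-fat diet. All 3 high-fat mice lay below all chow mice in 17 of the 40 genes, where 29.9% of all genes had separate groups in either direction. The median log2 change was -0.27 with all libraries and -0.13 without chow replicate 1, when 2 genes fell. In males 10 of the 40 genes fell, with a median of -0.41, where 1.1% of all genes were called in males in either direction.

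Among 28 genes of bile acid synthesis and transport 4 fell and 1 rose, where 2.55% of all genes fell and 3.37% rose. Cyp7b1 and Cyp39a1, oxysterol hydroxylases of the alternative route of bile acid synthesis, were at 74.1, 39.9 and 76.6 CPM on chow and 23.5, 17.7 and 26.8 CPM on the high-fat diet for Cyp7b1 (log2 change -1.49, SE 0.45, adjusted p = 0.036) and had a log2 change of -1.15 for Cyp39a1 (adjusted p = 0.037). Slco1a1, an organic anion uptake carrier, was at 59.6, 53.7 and 55.2 CPM on chow and 10.1, 18.1 and 12.6 CPM on the high-fat diet (log2 change -2.05, SE 0.58, adjusted p = 0.026). Abcb4, the phospholipid exporter of the bile canaliculus, fell by 0.50 on the log2 scale (adjusted p = 0.038). Slc27a5, which ligates bile acids to coenzyme A, rose (log2 change 0.44, adjusted p = 0.041). Cyp7a1, the rate-limiting enzyme of the classic route, was at 141, 232 and 210.4 CPM on chow and 116, 431 and 212 CPM on the high-fat diet (adjusted p = 0.85), and Cyp8b1, which sets the cholic acid share, at 909.8, 846 and 799 CPM on chow and 573, 455 and 422 CPM on the high-fat diet (adjusted p = 0.094). edgeR called none of the list without chow replicate 1 (6 at an unadjusted p under 0.05), chow replicate 3 (6) or high-fat replicate 1 (7), 1 without high-fat replicate 3 and 3 without high-fat replicate 2.

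Among 38 genes of xenobiotic metabolism, Ugt1a9 rose and none fell (2.63% of the list, against 5.92% of all genes called). Ugt1a9, a glucuronosyltransferase, was at 102, 75.2 and 41.5 CPM on chow and 184, 209 and 161 CPM on the high-fat diet (log2 change 1.35, SE 0.29, adjusted p = 0.0038). It shares exons and a locus with the other Ugt1a genes, so its reads can be split among them. The constitutive androstane receptor target Cyp2b10 was at 10.6, 19.5 and 33.4 CPM on chow and 5.03, 6.16 and 2.04 CPM on the high-fat diet (adjusted p = 0.076). Gsta3, a glutathione transferase, was at 376, 695 and 514 CPM on chow and 872, 929 and 1073 CPM on the high-fat diet (adjusted p = 0.084). Ugt1a9 passed in 5 of 6 fits with a library left out. With the 12 DBA/2J libraries alone edgeR called 6 of the 38 higher, against 7.99% of all genes in that fit, and with the 6 females alone 1 higher and 1 lower. In males 8 of the 38 genes fell, where 1.1% of all genes were called in males in either direction. The difference between the sexes passed in 5 of the 38, against 0.244% of all genes: Ces1d, Cyp2c55, Cyp3a11, Gsta2 and Ugt1a9.

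Of 27 genes of amino acid catabolism and the urea cycle 5 fell and none rose, against 2.55% of all genes that fell. The other 22 did not pass, and 8 of the 27 estimates were positive. Asl, argininosuccinate lyase, was at 660.5, 1117 and 1013 CPM on chow and 497, 429.7 and 460.2 CPM on the high-fat diet (log2 change -1.01, SE 0.26, adjusted p = 0.013), and Cps1, which starts the cycle, at 2910.1, 3402 and 4131 CPM on chow and 1744, 2194 and 2019.8 CPM on the high-fat diet (log2 change -0.81, SE 0.25, adjusted p = 0.041). In both the groups were separate. Got1, a cytosolic aspartate aminotransferase, was at 706, 699 and 846 CPM on chow and 345, 248 and 134 CPM on the high-fat diet (log2 change -1.63, adjusted p = 0.044), and Sds, serine dehydratase, had a log2 change of -0.97 (adjusted p = 0.0497). Asl passed in 4 of 6 fits with a library left out, and Cps1, Got1 and Sds in none. edgeR called none of the list without chow replicate 3 (7 of 27 at an unadjusted p under 0.05), 1 without chow replicate 2, and 2 each without chow replicate 1 and without any 1 of the high-fat mice.

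Of 24 genes of glucose handling and insulin signalling, Lepr and Igfbp1 fell (8.33% of the list, against 2.55% of all genes), as given above, and none rose. G6pc, which releases glucose into the blood, was at 468, 489 and 761 CPM on chow and 341, 209.7 and 169 CPM on the high-fat diet (adjusted p = 0.057). Irs2, an adaptor of the insulin receptor, was at 54.6, 52.5 and 86.1 CPM on chow and 35.3, 30.6 and 18.6 CPM on the high-fat diet (adjusted p = 0.11). Both had separate groups and did not pass. Pck1, of gluconeogenesis, was at 4343, 3599 and 4046 CPM on chow and 2518, 3227 and 3263 CPM on the high-fat diet (adjusted p = 0.49). The list's median log2 change was -0.11. It was -0.023 without high-fat replicate 1, -0.18 without chow replicate 2, and -0.20 without high-fat replicate 2 or 3. edgeR called none of it without chow replicate 3, high-fat replicate 1 or high-fat replicate 3 (3, 4 and 3 at an unadjusted p under 0.05), and 1 without chow replicate 1. It called 6 with the 12 DBA/2J libraries alone, where it called 12.5% of all genes, and 4 with the 6 females alone, where it called 4.65%.

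Of 20 clock genes 4 rose and 1 fell, against 3.37% and 2.55% of all genes. Dbp, an output factor of the clock (chr7:45705088-45710203, plus strand), was at 0.939, 10.1 and 12.7 CPM on chow and 25.4, 115 and 157 CPM on the high-fat diet (log2 change 3.64, SE 1.08, adjusted p = 0.032), and passed in 2 of 6 fits with a library left out. Per3, a period gene, was at 1.66, 7.55 and 8.48 CPM on chow and 9.74, 49.8 and 48.3 CPM on the high-fat diet (log2 change 2.61, SE 0.66, adjusted p = 0.011), and Tef, a factor related to Dbp, had a log2 change of 1.22 (adjusted p = 0.037). Per3 passed in 5 of 6 and Tef in 2 of 6 such fits. Replicate 1 was the lowest library within each diet in all 3 genes. Ciart, a repressor of the core clock, was at 0.646, 1.2 and 2.15 CPM on chow and 1.19, 9.43 and 32.9 CPM on the high-fat diet (log2 change 3.44, SE 0.93, adjusted p = 0.019), with high-fat replicate 1 within the chow range. It passed in 2 of 6 fits with a library left out, and had a log2 change of 2.00 without high-fat replicate 3. Clock, a core activator, was at 42, 41.9 and 43.3 CPM on chow and 25.9, 26.7 and 16.2 CPM on the high-fat diet (log2 change -0.89, SE 0.19, adjusted p = 0.0034), with separate groups, and passed in all 6 fits.

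The Ciart promoter is shown for its E-boxes, the CACGTG motif to which clock activators bind, in capitals.
Ciart (chr3:95882207-95882404, minus strand): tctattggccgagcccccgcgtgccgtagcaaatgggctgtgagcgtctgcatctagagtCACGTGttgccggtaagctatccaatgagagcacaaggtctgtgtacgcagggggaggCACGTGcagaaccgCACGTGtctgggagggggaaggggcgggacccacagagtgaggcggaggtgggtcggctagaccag
The motif, a palindrome read on both strands, occurs 3 times in this window, the first match 116 bases and the last 44 bases before the start. All 5 clock genes called matched RefSeq, with 8 windows, of which 3 held the motif (1 of Ciart and 2 of Tef), against 7.15% of all windows.

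Other core genes did not pass: Per2 was at 9.92, 12.5 and 12.3 CPM on chow and 5.53, 37.3 and 46.1 CPM on the high-fat diet (adjusted p = 0.068) and Arntl, the partner of Clock, at 28.2, 24 and 21.4 CPM on chow and 18.9, 6.27 and 3.7 CPM on the high-fat diet (adjusted p = 0.095). Nr1d1, a repressor of Arntl, was at 27.7, 75.6 and 94.2 CPM on chow and 80.8, 111 and 84.3 CPM on the high-fat diet (adjusted p = 0.74). In Per2 high-fat replicate 1 lay below all chow mice and the other 2 high-fat mice above them, and in Arntl it was the high-fat mouse closest to the chow mice. The hour of collection of each mouse was not available to the fit, so diet and hour cannot be told apart. Of the 20 genes 1 passed without chow replicate 1, 3 without chow replicate 2, 2 without chow replicate 3, 2 without high-fat replicate 3 and 7 without high-fat replicate 1. With the 6 females alone 1 passed. The median log2 change was 0.61 in females and 0.54 in DBA/2J males, where 1 gene was called higher.

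**Figure D4:**
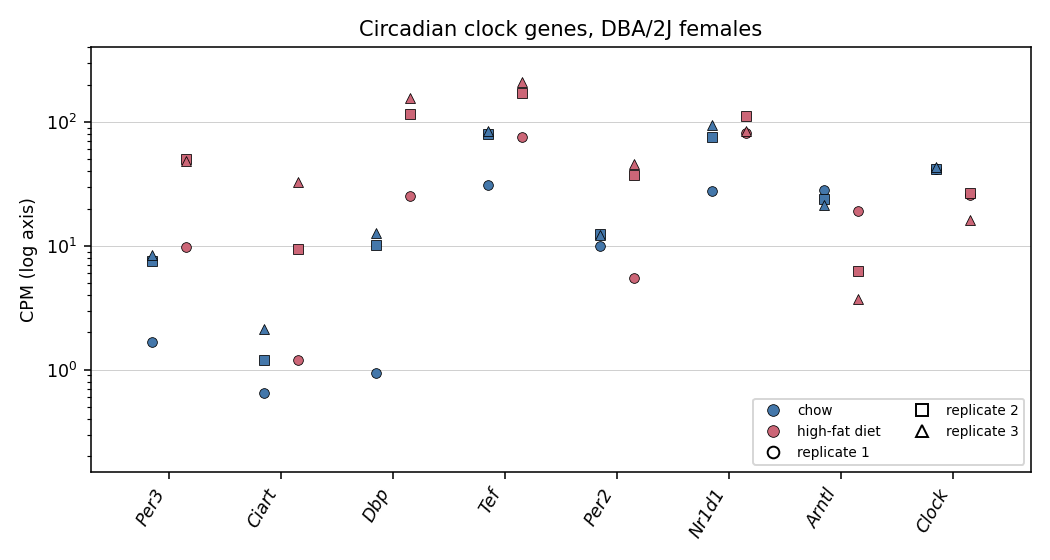
CPM of 8 circadian clock genes in the 6 DBA/2J female libraries, on a log axis, with colour for the diet and symbol for the replicate. Replicate 1 (circles) is the lowest of its diet in Per3, Ciart, Dbp and Tef, from 0.646 CPM in Ciart on chow.

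Of the genes of the respiratory chain 3 of 75 fell (4.0%, against 2.55% of all genes), with a median log2 change of -0.065. edgeR called 1 of them without chow replicate 2, chow replicate 3 or high-fat replicate 1, and the median turned to 0.0092 without chow replicate 2 and 0.034 without high-fat replicate 2. Cycs, the electron carrier cytochrome c, was at 81.3, 63.7 and 82.5 CPM on chow and 45.2, 37.8 and 53.6 CPM on the high-fat diet (log2 change -0.74, SE 0.14, adjusted p = 0.0011) and passed in all 6 fits with a library left out. Uqcrfs1 of the third complex and Ndufs1 of the first complex had log2 changes of -0.35 and -0.31. Of 28 extracellular matrix genes 1 rose (3.57%, against 3.37% of all genes): the collagen gene Col1a1 was at 2.78, 1.18 and 1.98 CPM on chow and 4.27, 7.35 and 5.28 CPM on the high-fat diet (log2 change 1.51, SE 0.45, adjusted p = 0.034) and with separate groups. Tpx2, a spindle protein, rose as 1 of 18 cell division genes (log2 change 1.70, adjusted p = 0.043; 5.56% of the list, against 3.37% of all genes), at most 1.7 CPM and highest in high-fat replicate 1, without which its log2 change was 1.01. With the 12 DBA/2J libraries alone edgeR called 5 cell division genes higher and 1 lower, and 2 matrix genes higher, where 7.99% of all genes were called higher and 4.52% lower in that fit. Cdkn1a, which halts the cell cycle, was at 113, 41.4 and 61.3 CPM on chow and 21.5, 8.04 and 5.68 CPM on the high-fat diet (adjusted p = 0.056).

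Of 26 genes that are higher in female than in male liver, 1 rose and 1 fell (7.69% of the list, against 5.92% of all genes called). edgeR fitted to the 12 DBA/2J libraries alone called 2 of them higher and 4 lower, against 7.99% and 4.52% of all genes in that fit. Cyp2b13, a cytochrome of female liver, was at 75.7, 143 and 105 CPM on chow and 302, 286 and 379.7 CPM on the high-fat diet (log2 change 1.58, SE 0.50, adjusted p = 0.043), and Cyp17a1, a steroid hydroxylase, at 384, 469 and 411 CPM on chow and 171, 147 and 185 CPM on the high-fat diet (log2 change -1.33, SE 0.42, adjusted p = 0.044). With all libraries of the series edgeR called no gene of 4 lists: male-biased genes (26 genes, 4 at an unadjusted p under 0.05), acute phase (28 genes, 4), endoplasmic reticulum stress (22 genes, 0) and antioxidant response (19 genes, 1). DESeq2 called 1, 1, 0 and 0 of them and limma none. With the 12 DBA/2J libraries alone edgeR called 5 acute phase and 3 male-biased genes higher, with the 6 females alone 4 and 1, and without high-fat replicate 2 it called 1 male-biased gene. In the fits of 12 and 6 libraries 7.99% and 3.16% of all genes were called higher. It called none of the stress and antioxidant genes in these fits. Hamp, the iron hormone hepcidin of the acute phase list, was at 710.5, 529 and 1329 CPM on chow and 404, 114 and 381 CPM on the high-fat diet (adjusted p = 0.069). Col1a1, Tpx2, Cyp2b13 and Cyp17a1 passed in 1, 3, 1 and 0 of the 6 fits with a library left out.

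The diet effect in females was next set against that in DBA/2J males, 3 on each diet, in which 157 genes (1.1%) were called. Of the genes called in females, 29 were also called in males, which is 3.42% of the female and 18.5% of the male calls, and 28 of them had the same direction. The difference between the effects passed in 35 genes (0.244%), 20 with the higher effect in females. The male libraries had more reads aligned to several places, 25.1% to 29.8%, and their part in the differences was not tested. The male groups also come from separate ranges of animal numbers, apart from those of both female groups. Sex, diet and cohort thus cannot be told apart in these differences.

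The falls that were deepest in females relative to males were led by Serpina4-ps1, with male values of 133, 82.5 and 83.5 CPM on chow and 322, 178 and 101 CPM on the high-fat diet (difference -6.49, SE 1.42, adjusted p = 0.017). Ugt2b37 was at 6.92, 2.59 and 3.42 CPM on chow and 5.33, 7.96 and 9.38 CPM on the high-fat diet in males (difference -4.38, SE 0.69, adjusted p = 9e-05), so that on chow it was higher in females and on the high-fat diet the sexes overlapped. Smad9 was at 18, 15.5 and 10.5 CPM on chow and 9.51, 11.5 and 6.75 CPM on the high-fat diet in males (difference -4.18, SE 0.81, adjusted p = 0.0069). Sult1e1, the estrogen sulfotransferase, was at 2.74, 5.23 and 5.48 CPM on chow and 1.07, 2 and 2.9 CPM on the high-fat diet in females, where its change did not pass (adjusted p = 0.17), and at 0.246, 0.16 and 0.506 CPM on chow and 3.48, 2.12 and 3.35 CPM on the high-fat diet in males, where it rose (difference -4.41, SE 0.89, adjusted p = 0.0078). Of the 12 fits that left out a DBA/2J library, this test passed in all for Ugt2b37, Smad9 and Sult1e1, and in 8 for Serpina4-ps1, whose difference was -5.14 without female chow replicate 1.

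In the other direction, Cyp3a11, a major drug-metabolising cytochrome, was at 1027, 753 and 825 CPM on chow and 1045, 1058 and 1656 CPM on the high-fat diet in females and 2903, 2895 and 2685 CPM on chow and 444, 304 and 283 CPM on the high-fat diet in males (difference 3.57, SE 0.57, adjusted p = 9e-05). The males fell from above to below the females. Acot3, a peroxisomal thioesterase, was at 19.5, 14.8 and 8.4 CPM on chow and 1.8, 0.909 and 1.22 CPM on the high-fat diet in males (difference 3.94, SE 0.90, adjusted p = 0.025), and Scd1, the main fatty acid desaturase, at 2694, 1566 and 815 CPM on chow and 444, 54.1 and 51.6 CPM on the high-fat diet (difference 4.73, SE 1.15, adjusted p = 0.045). Their changes in females did not pass, with adjusted p-values of 0.64 and 0.23. Sema5b was at 6.72, 5.82 and 9.79 CPM on chow and 6.37, 3.83 and 5.04 CPM on the high-fat diet in males (difference 3.04, SE 0.61, adjusted p = 0.0078), and Ugt1a9 at 249, 245 and 204 CPM on chow and 156, 150.0 and 126 CPM on the high-fat diet (difference 2.04, SE 0.41, adjusted p = 0.0078). Cyp3a11 passed in all 12 fits with a library left out, Sema5b and Ugt1a9 in 11, and Acot3 and Scd1 in 5. The difference in Scd1 was 3.29 without female high-fat replicate 2 and 6.52 without male high-fat replicate 1. Left-out libraries moved the count of 35 to between 8 (without female chow replicate 3) and 52 (without male chow replicate 3); it was also 14 without male high-fat replicate 2, 16 without female high-fat replicate 1 and 18 without male chow replicate 1.

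**Figure D5:**
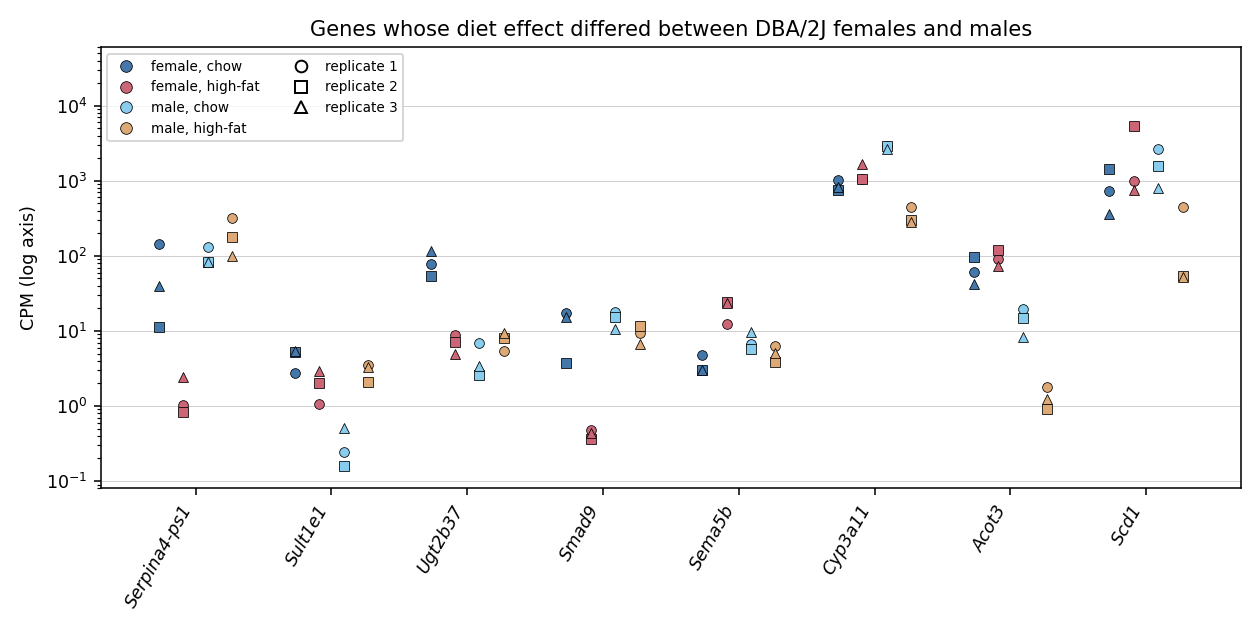
CPM of 8 genes whose diet effect differed between DBA/2J females and males in the 12 DBA/2J libraries, on a log axis, with colour for sex and diet and symbol for the replicate. Cyp3a11 is between 283 and 444 CPM in high-fat males and between 1045 and 1656 CPM in high-fat females.

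Against the mean effect in females of the other 8 strains, the effect in DBA/2J females differed in 40 genes, 23 with the higher effect in DBA/2J. Smad9 had a mean log2 effect of -1.20 in the others and -4.84 in DBA/2J (difference -3.64, SE 0.66, adjusted p = 0.0014). Ugt2b37 had -0.37 in the others (difference -3.21, SE 0.53, adjusted p = 0.00032) and Serpina4-ps1 -0.73 (difference -4.76, SE 1.18, adjusted p = 0.045). Mup17, a major urinary protein, was at 30.6, 29 and 54.4 CPM on chow and 14, 14.2 and 21 CPM on the high-fat diet in DBA/2J females (adjusted p = 0.15), with a mean effect of 1.40 in the others (difference -2.62, SE 0.59, adjusted p = 0.019). The estimates in DBA/2J and in the others had opposite signs. Gm12718 had 0.16 in the others (difference 4.29, SE 0.90, adjusted p = 0.0093) and Wee1 0.35 (difference 2.23, SE 0.49, adjusted p = 0.014). Smad9, Ugt2b37 and Gm12718 passed in all 6 fits that left out a DBA/2J female, Mup17 in 2, and Serpina4-ps1 and Wee1 in 1. Without chow replicate 1 the difference in Serpina4-ps1 was -3.41, and without chow replicate 2 that in Gm12718 was 5.07. One library of the other strains, labelled 129S1/SvImJ female CD 1, had Xist at 0.891 CPM, against 196 to 389 CPM in the other 47, so it goes against its labelled sex. It was kept under its label. Without it 57 genes passed, with all of the differences named here and among the cholesterol genes kept. The count was 13 without chow replicate 3, 14 without high-fat replicate 3 and 16 without chow replicate 1. Since these differences, those between the sexes and the diet effect itself share the DBA/2J female libraries, they are not independent of one another.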

How the data were processed

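Liver RNA was counted per gene in the 6 libraries described and in 100 others. The deposited counts are whole numbers, and FastQC, STAR 2.73a and edgeR 3.24.3 are named in the submitters' processing notes. The counter, genome build, annotation and strand are not given in the sources used here. The 3 summary lines that name no gene were left out of library sizes and tests (reads aligned to several places, outside genes, or ambiguous between genes), and made up 15.6% to 19.4%, 5.94% to 7.78% and 5.80% to 6.19% of the counted reads of the 6 libraries. Gene names are from a table of Ensembl identifiers, in which 14321 of 14330 matched, and positions from GENCODE M21 (GRCm38).

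All libraries, in 36 groups, were fitted in edgeR 4.0.16 (R 4.3.3) with TMM factors and the quasi-likelihood test, and every adjusted p is from it with Benjamini-Hochberg adjustment over 14330 genes at a threshold of 0.05. Contrasts were the diet effect in DBA/2J females, its difference from males, and its difference from the mean of the other 8 strains. Alternatives were DESeq2 1.42.0, limma 3.58.1, DESeq2 size factors, a filter on low counts, no dispersion trend, smaller sets of libraries, and each replicate left out. The edgeR, DESeq2 and limma steps were tested on simulated data. Libraries of a group differed by a chi-square of 57.1 to 123 per gene, where sampling noise alone gives about 1, so no pair agreed within that noise. Each library is labelled as a separate mouse.

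Genes named are drawn from the 12 largest rises and falls with a mean of at least 1 CPM and separate groups, a panel, up to 4 of the smallest p per list, and the 4 highest and lowest of each difference. Other members of a list are named from its counts. The members, lists and panel were chosen with earlier results of these data known. Promoters were read from RefSeq tables. Some members are not reported here.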

Additional observations from a re-analysis of the deposited data

Results flagged for a closer look

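Tests of the difference itself marked genes whose diet effect was not the same in 2 sets of mice; values are differences of log2 diet effects. Between DBA/2J females and males, the effect was lower in females in Serpina4-ps1 (-6.49), Sult1e1 (-4.41), Ugt2b37 (-4.38) and Smad9 (-4.18). It was lower too in Gm28437 (-0.96) and Gm10925 (-1.08), nuclear copies of mitochondrial genes that were chosen after their values were seen. The share of reads aligned to several places was 15.6% to 19.4% in females and 25.1% to 29.8% in males, and its part in these copies was not tested. The effect was higher in females in Scd1 (4.73), Acot3 (3.94), Cyp3a11 (3.57), Sema5b (3.04) and Ugt1a9 (2.04).

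Between DBA/2J females and the mean of females of the other 8 strains, the effect was lower in DBA/2J in Serpina4-ps1 (-4.76), Smad9 (-3.64), Ugt2b37 (-3.21) and Mup17 (-2.62). It was lower too in the nuclear copies Gm28437 (-0.86), Gm10925 (-0.87) and Gm13340 (-0.90), also chosen after their values were seen. It was higher in DBA/2J in Gm12718 (4.29), Sqle (2.51), Wee1 (2.23), Cyp51 (2.08), Msmo1 (2.04), Nsdhl (2.03), Dhcr7 (1.64) and Pmvk (1.31).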

How the results depend on the processing

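The 848 calls of the diet effect became 1793 with the 12 DBA/2J libraries alone and ranged from 99 to 949 with a replicate left out. The 35 differences between the sexes became 23 with low counts left out, 76 with the 12 DBA/2J libraries alone, and 8 to 52 with a replicate left out. The 40 differences from the other strains became 25 with low counts left out, 76 in DESeq2, and 13 to 57 with a library left out, the highest without the 129S1/SvImJ library at odds with its labelled sex. The cause of these shifts was not tested, beyond the smaller number of genes or samples in the fits concerned. Of the 94 genes named here or in the report that passed in the diet effect, 23 passed in every alternative and 71 lost the call in at least 1, most often without chow replicate 3, and none changed sign. In the difference between the sexes 4 of 11 genes passed in every alternative, and in that from other strains 6 of 15.

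Among the genes that did not pass, the log2 change ranged from -0.47 to 0.087 in Plin2 and from -0.24 to 0.72 in Cyp7a1 with a library left out, turning sign without chow replicate 1 in Plin2 and without high-fat replicate 2 in Cyp7a1. No paired analysis was possible because the labels give each mouse its own number and no number is shared between groups. Groups of 3 limit the precision, and an exact permutation of 3 against 3 cannot reach the threshold.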

Other observations

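Genes that present antigen were among those that rose in the DBA/2J female livers on the high-fat diet. This list and the genes named in this section were chosen after the values were seen. Of 31 genes of antigen presentation 22 rose and none fell, against 3.37% of all genes that rose, with a median log2 change of 0.85, against 0.23 in males. Ciita, the switch of class II genes, was at 2.9, 1.68 and 2.3 CPM on chow and 7.66, 5.51 and 4.14 CPM on the high-fat diet (adjusted p = 0.052 from edgeR). Among the class II chains, H2-Aa was at 48.2, 27.7 and 26.8 CPM on chow and 238, 73 and 51.9 CPM on the high-fat diet (log2 change 1.82, SE 0.42, adjusted p = 0.0056). H2-Ab1 and H2-Eb1 had log2 changes of 1.77 and 1.90, and Cd74, the invariant chain, 1.37. The class I light chain B2m was at 1083, 1303 and 1033 CPM on chow and 2236, 1675 and 1526 CPM on the high-fat diet (log2 change 0.67, adjusted p = 0.03). High-fat replicate 1 was the highest library in H2-Aa and B2m, as it was for the interferon genes. Without it the log2 changes of H2-Aa, H2-Ab1, H2-Eb1 and Cd74 were 0.87, 0.91, 0.96 and 0.76. The count of calls was 11 without chow replicate 1, 2 without chow replicate 3, 2 without high-fat replicate 1 and 8 in a fit of the 6 female libraries alone. Class II genes are markers of antigen-presenting cells, and genes of this locus are close copies of one another.

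Transcripts encoded in the mitochondrial genome pointed the other way, with 4 of 13 lower and none higher, against 2.55% of all genes that fell, and a median log2 change of -0.47 (-0.30 without chow replicate 2). edgeR called none of them without chow replicate 2 (6 at an unadjusted p under 0.05), and 1 each without chow replicate 3, without high-fat replicate 1 and with the 6 females alone. The summed level of the 13 was 32953, 36794 and 32330 CPM on chow and 32348.5, 29117 and 29198 CPM on the high-fat diet, so the groups overlapped. mt-Co2, a subunit of cytochrome oxidase and a very small part of this sum, was at 4.81, 6.11 and 5.03 CPM on chow and 3.04, 3.39 and 3.1 CPM on the high-fat diet (log2 change -0.74, adjusted p = 0.011). The 3 nuclear copies of mitochondrial genes looked at, Gm10925, Gm13340 and Gm28437, fell as well. They were picked after their values were seen, and the table was not searched for further copies. Gm28437 was at 3.62, 4.36 and 3.82 CPM on chow and 2.16, 2.3 and 1.93 CPM on the high-fat diet (log2 change -0.88, adjusted p = 0.00025), and reads of such copies cannot be told apart from mitochondrial reads here. The share of reads aligned to several places was also lower on the high-fat diet, and its part in these falls was not tested.

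Cela1, the single one of 10 pancreas markers in the table, rose from 11.4, 17.5 and 11 to 39.7, 28.8 and 37.5 CPM (log2 change 1.41, adjusted p = 0.0012). In DBA/2J males it was called higher too, from 22.7, 18.2 and 17.3 CPM on chow to 46.9, 42.3 and 38.7 CPM on the high-fat diet.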
